A study of Mus musculus with 9 samples.

Results

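Aminoacyl-tRNA synthetases are the enzymes that attach each amino acid to its transfer RNA, the step that supplies the ribosome with charged tRNA. The 36 genes described here were chosen by symbol in the deposited table: 20 coding for the cytosolic enzymes and 16 coding for their mitochondrial counterparts, whose symbols end in 2. All 36 were found among the 13116 genes of the table, and all 36 passed the filter on low values that left 13089 genes. The rule that picks them uses no measured value, but the members and the gene lists below were chosen with earlier results of these data known.

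The study measured RNA of whole quadriceps muscle from male mice of 18 months by single-end sequencing, 1 library per mouse. KO_secGAA were 3 Gaa knockout mice that had received, through the tail vein at 9 months, an AAV8 vector carrying a codon-optimised human GAA engineered for secretion (secGAA). KO_PBS were 3 Gaa knockout mice injected with PBS at the same age, and WT_PBS were 3 wild-type mice injected with PBS. Muscle was taken 9 months after injection in all 3 groups. Gaa codes for acid alpha-glucosidase, the lysosomal enzyme that degrades glycogen and that is deficient in Pompe disease. The labels give neither the knockout allele nor the promoter and target tissue of the vector.

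Each synthetase serves 1 amino acid, except that Eprs joins the glutamate and proline activities in a single chain. In the cytosol, a group of these enzymes (Eprs, Iars, Lars, Mars, Qars, Rars, Kars and Dars) sits with the scaffold proteins Aimp1, Aimp2 and Eef1e1 in the multi-synthetase complex. Mitochondria translate their own few messages with a separate set of nuclear-coded enzymes, while Gars and Kars serve both compartments. When amino acids run short, the kinase Gcn2 senses uncharged tRNA and the factor ATF4 is translated, and several cytosolic synthetase genes are known ATF4 targets in mammalian cells.

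The deposited values are normalized counts, that is reads set relative to the scaled library total, and levels below are on that scale unless given per kilobase. Log2 fold changes are differences of log2(value + 0.5) from limma, fitted over all 9 libraries, with p-values adjusted by the Benjamini-Hochberg method over all 13089 genes; a gene is called changed at an adjusted p under 0.05. The libraries held 10495715 to 14406655 reads in KO_secGAA, 9299156 to 14355201 in KO_PBS and 15477523 to 15957106 in WT_PBS, so every WT_PBS library was deeper than every library of the other groups. The synthetase with the fewest reads, Pars2, had at least 29 in every library, above the floor of 3 reads. Gaa averaged 15.8 ± 0.783 in KO_secGAA, 15.4 ± 2.05 in KO_PBS and 230 ± 88.9 in WT_PBS (SD, n = 3 each), and the human transgene is not a row of the table. In whole muscle, fewer cells of a type and less RNA per cell cannot be told apart.

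The promoter sequences show which synthetase genes with a window hold a match to the core of the element through which ATF4 and C/EBP factors act. RefSeq promoter windows (GRCm38.p6, 250 bases before to 50 after each transcription start) were searched on both strands for TGATGNAA, the core of the C/EBP-ATF composite site, also called the amino acid response element. Of the 36 genes, 27 had a window; Cars, Hars, Lars, Nars, Rars, Vars, Wars, Hars2 and Pars2 had none in the table used. The 5 genes with a match are printed 5′ to 3′ on the strand of the gene, with the match in capitals; TTNCATCA is the same motif read on the opposite strand.
Aars, chr8:111033690-111033777 (+): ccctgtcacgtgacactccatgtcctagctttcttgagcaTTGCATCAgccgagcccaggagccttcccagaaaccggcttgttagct
Aars, chr8:111033811-111033871 (+): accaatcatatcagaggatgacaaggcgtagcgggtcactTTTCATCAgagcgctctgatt
Gars, chr6:55037931-55038018 (+): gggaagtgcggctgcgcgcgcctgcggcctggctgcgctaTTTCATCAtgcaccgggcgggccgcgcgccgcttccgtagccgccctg
Iars, chr13:49682097-49682159 (+): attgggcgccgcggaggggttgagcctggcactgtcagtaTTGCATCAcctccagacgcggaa
Tars, chr15:11399629-11399713 (-): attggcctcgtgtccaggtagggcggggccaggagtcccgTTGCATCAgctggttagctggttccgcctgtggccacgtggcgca
Yars, chr4:129189866-129189932 (+): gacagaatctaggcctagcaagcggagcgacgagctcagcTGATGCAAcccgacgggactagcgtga

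The match lay within 30 bases of the start in Gars (position -30), Tars (-15), Iars (8), Yars (4) and at the second site of Aars (10), and at -112 for the first site of Aars. It was present in 5 of the 13 cytosolic genes with a window (38.5%) and in 0 of the 14 mitochondrial ones, beside 3.97% of all 32851 windows and 4.51% of the 27025 genes with a window. A match describes the letters of the window and is not evidence of binding, and the absence of one says only that these letters are not in it.

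Per kilobase of annotated exon, the transcripts of the cytosolic enzymes were the more abundant class. In WT_PBS muscle their levels ran from 6.21 to 29.4 normalized counts per kb with a median of 13.2, those of the mitochondrial enzymes from 0.631 to 27.6 with a median of 4.08, and the median of all genes was 2.68. Nars, the asparaginyl enzyme, had the highest level per kb in WT_PBS muscle (29.2 ± 1.99 in KO_secGAA, 27.8 ± 2.54 in KO_PBS and 29.4 ± 1.40 in WT_PBS; SD, n = 3 each). Kars, the lysyl enzyme, and Gars, the glycyl enzyme, followed among the cytosolic genes at 26.0 ± 0.714 and 25.2 ± 1.66 per kb in WT_PBS, and did not differ beyond their spread.

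At the low end in WT_PBS stood the mitochondrial methionyl enzyme Mars2 (0.631 ± 0.0241 per kb) and the tryptophanyl enzyme Wars2 (0.697 ± 0.0425 per kb). Apart from Lars2, only Iars2, at 6.44 ± 0.316 per kb in WT_PBS, reached the range of the cytosolic genes, and it did not differ beyond its spread from Farsa, the lowest of them, at 6.21 ± 0.178. Of all 61-base stretches in the transcripts of Iars2, 22.4% are shared with other genes, mostly Rab3gap2 on the other strand. These levels use the union of annotated exons as length, so a gene with a long rarely used exon is understated.

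**Figure D1:**
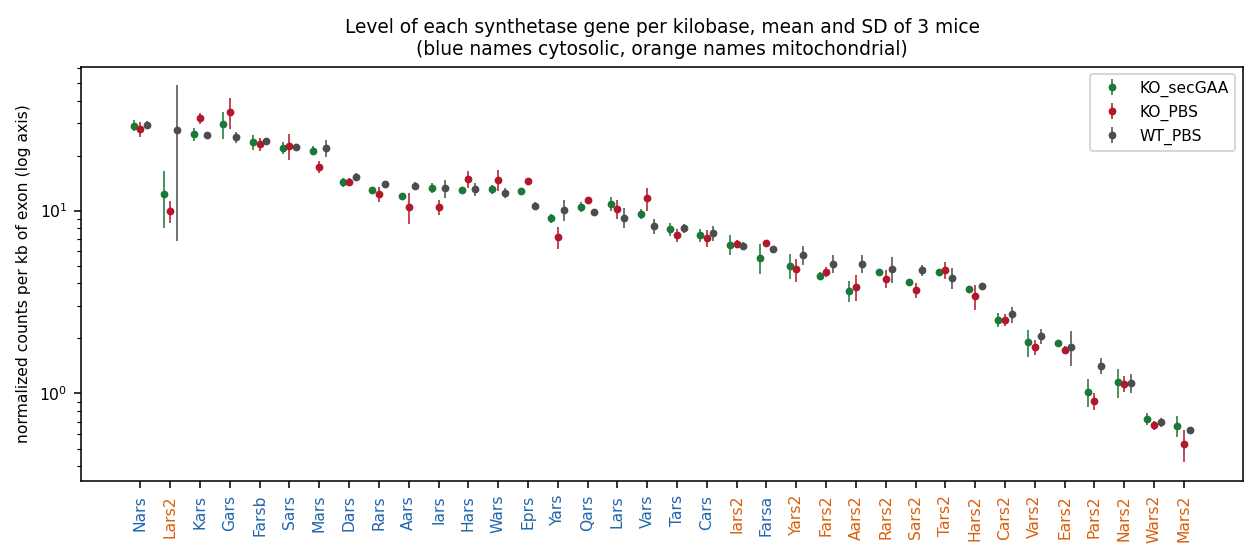
Level of each of the 36 synthetase genes in normalized counts per kilobase of exon (log axis), with points for the mean and bars for the SD of 3 mice in KO_secGAA, KO_PBS and WT_PBS, ordered by the WT_PBS mean. Cytosolic genes (blue names) run from 29.4 to 6.21 in WT_PBS, and all mitochondrial genes (orange names) except Lars2 and Iars2 lie below them; Lars2 has an SD of 20.8 in WT_PBS.

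Individual synthetase transcripts differed between KO_PBS and WT_PBS in both directions and by modest amounts. Between KO_PBS and WT_PBS, 8 of the 36 genes were called, 3 higher and 5 lower, a share of 22.2% beside 21.9% of all genes tested, so the members were called about as often as any gene; at an unadjusted p under 0.05 the count was 13 of 36, beside 35.4%. Eprs, Vars and Kars rose, while Yars, Mars, Iars and the mitochondrial Pars2 and Sars2 fell. By class, 3 of 20 cytosolic genes were higher and 3 lower, and 0 of 16 mitochondrial genes were higher and 2 lower, beside 10.9% of all genes called higher and 11% called lower. The largest called change was a log2 fold change of -0.56, and the median absolute log2 fold change of the 36 was 0.19, beside 0.27 over all genes.

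Eprs, the fused glutamyl and prolyl enzyme at chr1:185363044-185428360, had 231, 239 and 224 normalized counts in KO_secGAA, 256, 261 and 272 in KO_PBS, and 186, 186 and 203 in WT_PBS. Each of the 3 groups lay apart from the other 2, with KO_PBS highest and KO_secGAA between. Against WT_PBS, Eprs rose in KO_PBS by a log2 fold change of 0.46 (SE 0.073, limma adjusted p = 0.00225), and this call held under all 19 alternative settings.

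Vars, the cytosolic valyl enzyme at chr17:35000987-35016322, had 57.3, 50.1 and 54.3 in KO_secGAA, 76.2, 57.6 and 62.3 in KO_PBS, and 50.9, 42.8 and 44.3 in WT_PBS. All 3 KO_PBS libraries exceeded all 3 WT_PBS libraries, and the first KO_PBS library stood well above the other two. The log2 fold change of KO_PBS against WT_PBS was 0.50 (SE 0.118, limma adjusted p = 0.0147). Without WT_PBS replicate 2 or replicate 3 the call ended, with an adjusted p of up to 0.0573.

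Kars, the lysyl enzyme of both compartments at chr8:111993443-112011323, had 108, 116 and 127 in KO_secGAA, 148, 148 and 132 in KO_PBS, and 120, 116 and 113 in WT_PBS. The KO_PBS libraries lay above both other groups, which overlapped each other. Kars rose in KO_PBS against WT_PBS by a log2 fold change of 0.29 (SE 0.085, limma adjusted p = 0.034). Leaving out any 1 WT_PBS library, or KO_PBS replicate 1 or 2, ended the call (adjusted p up to 0.114).

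Yars, the cytosolic tyrosyl enzyme at chr4:129189760-129219607, whose window holds the TGATGCAA printed above, went the other way. It had 52.1, 57.5 and 52.4 in KO_secGAA, 49.6, 39.6 and 38.9 in KO_PBS, and 67.9, 51.8 and 60.5 in WT_PBS. KO_PBS lay below both other groups. For KO_PBS against WT_PBS this was a log2 fold change of -0.49 (SE 0.124, limma adjusted p = 0.0207). It was no longer called without WT_PBS replicate 1 or 3 or KO_PBS replicate 2 or 3 (adjusted p up to 0.0756).

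Mars, the cytosolic methionyl enzyme at chr10:127296221-127311786, had 68.2, 75.4 and 75.3 in KO_secGAA, 64.1, 55.1 and 59.1 in KO_PBS, and 76.2, 66.6 and 82.6 in WT_PBS. Its KO_PBS libraries were below those of both other groups. Mars had a log2 fold change of -0.33 for KO_PBS against WT_PBS (SE 0.1, limma adjusted p = 0.0396). Mars overlaps Ddit3 on the other strand, with 0.229% of its 61-base stretches shared. The call ended without WT_PBS replicate 1 or 3, KO_PBS replicate 2 or 3, or KO_secGAA replicate 2 or 3 (adjusted p up to 0.149). Mars was also not called with only the 2 groups compared (limma adjusted p = 0.0621).

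Iars, the cytosolic isoleucyl enzyme at chr13:49682100-49734267, also carries the motif. It had 72.0, 73.0 and 65.6 in KO_secGAA, 55.8, 49.8 and 59.7 in KO_PBS, and 77.8, 62.5 and 68.8 in WT_PBS. The KO_PBS libraries were again the lowest of the 3 groups, without overlap. The log2 fold change of KO_PBS against WT_PBS was -0.33 (SE 0.104, limma adjusted p = 0.0458). This call held only without WT_PBS replicate 2 or KO_PBS replicate 3 among the 9 left-out libraries, and ended without each of the other 7 (adjusted p up to 0.154). Iars was also not called with quantile normalization (limma adjusted p = 0.0796) or with only the 2 groups compared (limma adjusted p = 0.0716).

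Pars2, the mitochondrial prolyl enzyme at chr4:106651069-106655282, had 2.72, 3.02 and 3.78 in KO_secGAA, 2.90, 2.48 and 3.08 in KO_PBS, and 4.56, 4.74 and 3.89 in WT_PBS. Both knockout groups lay wholly below WT_PBS and overlapped each other. The log2 fold change of KO_PBS against WT_PBS was -0.56 (SE 0.174, limma adjusted p = 0.0446). The call ended without any 1 WT_PBS or KO_PBS library or KO_secGAA replicate 2 (adjusted p up to 0.135). Pars2 was also not called by edgeR (adjusted p = 0.0535), by DESeq2 (adjusted p = 0.0839) or with only the 2 groups compared (limma adjusted p = 0.0543).

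Sars2, the mitochondrial seryl enzyme at chr7:28741992-28753871, had 13.3, 13.2 and 13.8 in KO_secGAA, 12.8, 10.8 and 13.0 in KO_PBS, and 14.8, 15.1 and 16.9 in WT_PBS. The 3 groups did not overlap, with KO_PBS lowest and KO_secGAA between. Sars2 fell in KO_PBS, with a log2 fold change of -0.35 relative to WT_PBS (SE 0.109, limma adjusted p = 0.0464). Its call ended when any 1 of the 9 libraries was left out (adjusted p 0.0593 to 0.162). Sars2 was also not called by DESeq2 (adjusted p = 0.0758) or with only the 2 groups compared (limma adjusted p = 0.0809).

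**Figure D2:**
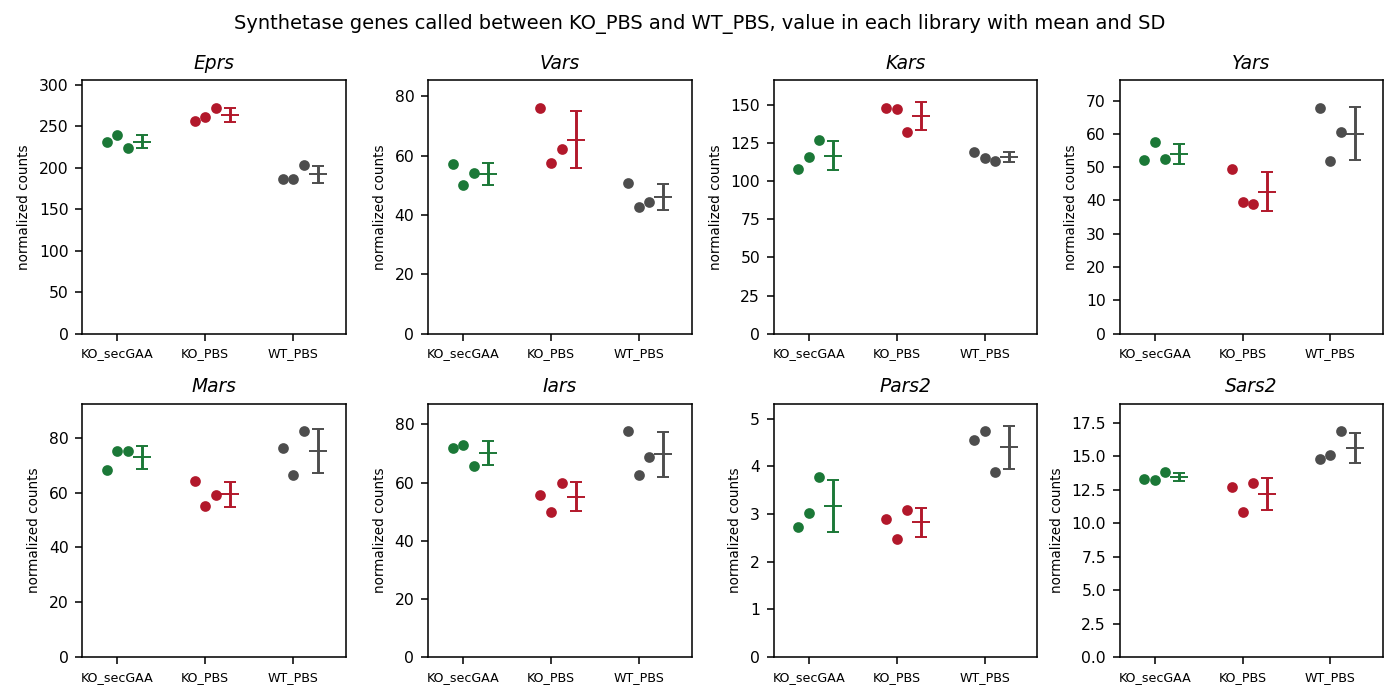
Normalized counts of the 8 synthetase genes called between KO_PBS and WT_PBS, with a point for each mouse and the mean and SD beside it, for KO_secGAA, KO_PBS and WT_PBS. KO_PBS lies above WT_PBS for Eprs, Vars and Kars and below it for Yars, Mars, Iars, Pars2 and Sars2, and KO_secGAA lies on the WT_PBS side of KO_PBS for all but Pars2, where these groups overlap.

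The 28 other members, of which those with values here were singled out after they were seen unless partners of called genes, did not pass the test between KO_PBS and WT_PBS. Aars (log2 fold change -0.39, limma adjusted p = 0.0557) and Gars (0.43, limma adjusted p = 0.075) stood just outside the threshold with groups that did not overlap, as did Qars, the glutaminyl enzyme (0.22, limma adjusted p = 0.0636), and Aars2 (-0.41, limma adjusted p = 0.0718). Gars, whose window holds the motif, had 90.6, 109 and 77.7 normalized counts in KO_secGAA, 124, 84.8 and 115 in KO_PBS, and 78.7, 73.5 and 83.9 in WT_PBS. Aars, with a pair of matches, had 108, 114 and 111 in KO_secGAA, 112, 76.5 and 105 in KO_PBS, and 131, 119 and 130 in WT_PBS.

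Over all 36, the groups KO_PBS and WT_PBS did not overlap for 15 genes, 6 higher and 9 lower, beside 39.7% of all genes. The 6 higher were all cytosolic, and of the 9 lower 5 were cytosolic and 4 mitochondrial. Outside Lars2, the intervals of all members lay within a log2 fold change of 1 in either direction in each comparison, and 22 of the 36 lay within 0.5 for KO_PBS against WT_PBS. Within the multi-synthetase complex, 2 of 8 genes were higher (Eprs and Kars) and 2 lower (Iars and Mars), beside 10.9% of all genes called higher and 11% lower.

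Which members are called depends on the between-library scaling that the authors applied. The scaling factors were 0.963 to 1.034 in KO_secGAA, 1.068 to 1.170 in KO_PBS and 0.873 to 0.914 in WT_PBS, without overlap. In small changes, the part of the scaling therefore cannot be told apart from that of the group. Without the scaling factors the median log2 fold change of all genes for KO_PBS against WT_PBS became 0.30 instead of 0.01, and 4466 genes were called higher against 518 lower. On that scale 11 cytosolic genes were called, all higher, and 2 mitochondrial genes, Iars2 and Tars2, both higher. The log2 fold changes of Yars, Mars, Iars, Pars2 and Sars2 stayed below 0 there, at -0.17, -0.02, -0.02, -0.28 and -0.04, and none was called. Eprs, Vars and Kars were called higher on either scale.

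**Figure D3:**
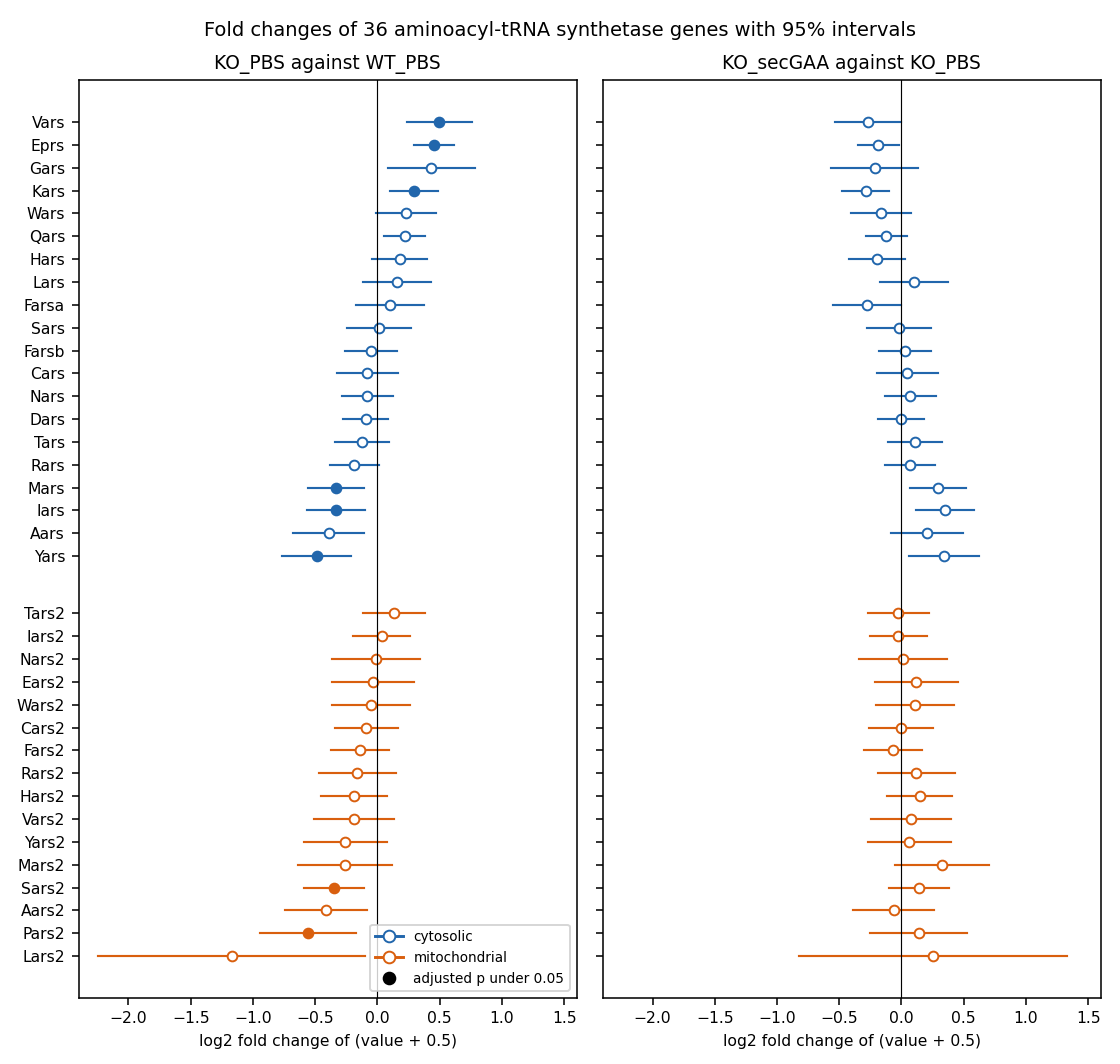
Log2 fold changes of (value + 0.5) with 95% intervals for all 36 synthetase genes, KO_PBS against WT_PBS on the left and KO_secGAA against KO_PBS on the right, cytosolic genes in blue and mitochondrial genes in orange, each ordered by the left panel. Filled points mark the 8 genes called between KO_PBS and WT_PBS; none is filled on the right.

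The classes were then set against each other. For KO_PBS against WT_PBS the median log2 fold change was -0.02 over the cytosolic and -0.17 over the mitochondrial genes, beside 0.01 over all genes. Of the 16 mitochondrial estimates 14 lay below 0, against 10 of the 20 cytosolic ones and 6410 of 13089 over all genes. Without the scaling factors 4 of 16 mitochondrial, 4 of 20 cytosolic and 2889 of 13089 estimates lay below 0, so the count of signs rests on the scaling. The difference of the class medians, 0.16, carries no test.

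The summed level of the 20 cytosolic genes was 1513, 1580 and 1507 normalized counts in KO_secGAA, 1666, 1439 and 1608 in KO_PBS, and 1523, 1422 and 1537 in WT_PBS, and the groups overlapped. The summed level of the mitochondrial genes without Lars2 was 248, 248 and 260 in KO_secGAA, 243, 237 and 262 in KO_PBS, and 254, 278 and 272 in WT_PBS, again with overlap. The ratio of these sums, which no scaling factor can move, was 6.10, 6.36 and 5.80 in KO_secGAA, 6.86, 6.07 and 6.13 in KO_PBS, and 5.99, 5.12 and 5.65 in WT_PBS. Each KO_PBS library exceeded each WT_PBS library in this ratio, while KO_secGAA overlapped both. That separation rests on leaving out Lars2 and on which cytosolic genes are summed. With all 16 mitochondrial genes the ratio was 4.08, 3.62 and 4.22 in KO_secGAA and 4.91, 4.18 and 4.13 in KO_PBS. It was 4.21, 1.70 and 2.93 in WT_PBS, and the groups overlapped. With Lars2 left out, KO_PBS and WT_PBS also overlap once Eprs, or Kars and Gars together, leave the cytosolic sum. Kars and Gars serve both compartments. The cytosolic minus mitochondrial difference in median log2 deviation per library overlapped too, at 0.01, 0.01 and -0.02 in KO_secGAA, 0.22, -0.08 and -0.01 in KO_PBS, and 0.07, -0.21 and -0.11 in WT_PBS.

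**Figure D4:**
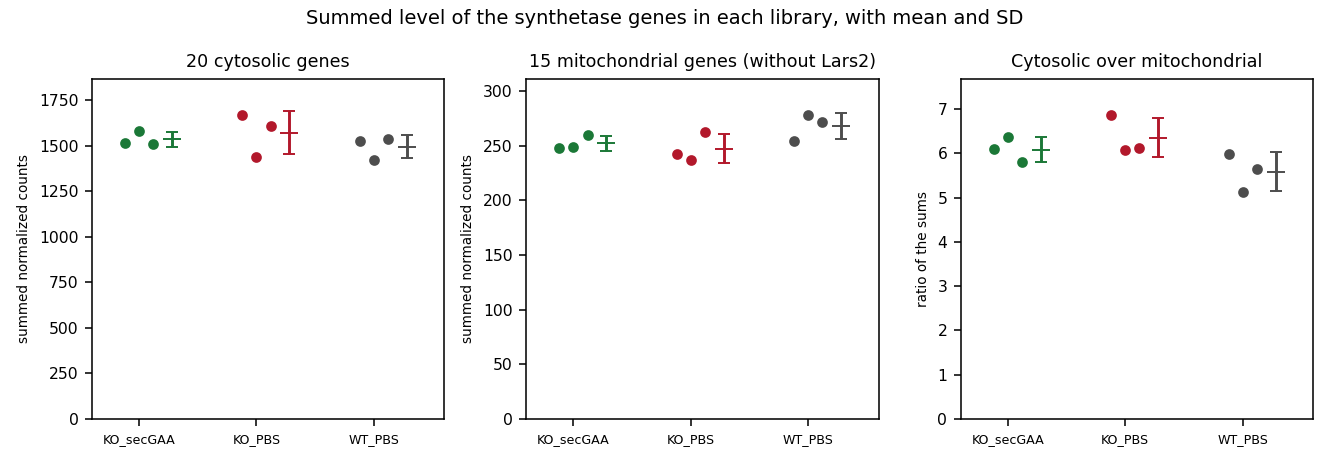
Summed normalized counts of the 20 cytosolic genes, of the 15 mitochondrial genes other than Lars2, and their ratio, with a point for each mouse and the mean and SD beside it, for KO_secGAA, KO_PBS and WT_PBS. The ratio is 6.07 to 6.86 in KO_PBS and 5.12 to 5.99 in WT_PBS, and the sums themselves overlap. With Lars2 kept, or without Eprs, or without Kars and Gars, the ratios overlap as well.

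Partner genes for the same amino acid give a within-library view of the same question. Of the 17 cytosolic and mitochondrial pairs, 11 had a higher mean log2 ratio in KO_PBS than in WT_PBS; the ratio was higher without overlap in 6 and lower without overlap in 1. This is 7 of 17 ratios, set beside 39.7% of all single genes without overlap, and of the 6 higher ones a pair shares Eprs and another holds Lars2. Eprs over Pars2, the prolyl pair, had log2 ratios of 6.17, 6.09 and 5.71 in KO_secGAA, 6.24, 6.45 and 6.25 in KO_PBS, and 5.20, 5.16 and 5.54 in WT_PBS. Both knockout groups lay above WT_PBS in this ratio, by a mean of 0.69 in KO_secGAA and 1.02 in KO_PBS.

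Vars over Vars2, the valyl pair, differed by 0.69 between KO_PBS and WT_PBS in mean log2 ratio, and Vars2 alone had 9.17, 9.66 and 12.4 normalized counts in KO_secGAA, 9.36, 9.18 and 10.8 in KO_PBS, and 9.97, 12.1 and 11.7 in WT_PBS. Sars over Sars2 differed by 0.36, and here the cytosolic seryl enzyme Sars had overlapping groups (105, 121 and 115 in KO_secGAA, 132, 96.0 and 120 in KO_PBS, and 110, 114 and 118 in WT_PBS). Of the 6 pairs with a lower mean ratio in KO_PBS, the isoleucyl pair was the 1 without overlap. Iars over Iars2 had a mean log2 ratio lower by 0.37 in KO_PBS (difference -0.37) and Iars2 alone had 61.7, 49.4 and 62.4 in KO_secGAA, 60.8, 55.0 and 60.0 in KO_PBS, and 58.2, 54.1 and 59.4 in WT_PBS.

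The partners of the remaining called genes did not pass the test between KO_PBS and WT_PBS. Ears2, the mitochondrial glutamyl enzyme, had 9.91, 9.92 and 9.40 normalized counts in KO_secGAA, 9.23, 9.18 and 8.41 in KO_PBS, and 7.64, 11.6 and 8.70 in WT_PBS. Yars2 had 14.7, 18.5 and 14.0 in KO_secGAA, 12.7, 15.5 and 17.0 in KO_PBS, and 15.8, 18.4 and 19.9 in WT_PBS. Mars2 had 8.06, 8.17 and 6.38 in KO_secGAA, 6.56, 6.74 and 4.55 in KO_PBS, and 6.82, 7.34 and 7.22 in WT_PBS, with every KO_PBS library below every WT_PBS library.

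Lars2, the mitochondrial leucyl enzyme, was the most variable member. It had 123, 188 and 97.4 normalized counts in KO_secGAA, 96.8, 108 and 127 in KO_PBS, and 107, 559 and 252 in WT_PBS. A pair of WT_PBS libraries stood above all others and the third lay within the range of the knockout groups, so the groups overlapped. The log2 fold change of KO_PBS against WT_PBS was -1.17 (SE 0.481, limma adjusted p = 0.112). The share of reads from mitochondrial genome transcripts moved with it in WT_PBS, at 11.6%, 17.0% and 14.6%, beside 11.7%, 12.2% and 11.4% in KO_secGAA and 10.2%, 10.6% and 9.85% in KO_PBS; its part in the Lars2 values was not tested. Of the 61-base stretches of Lars2 transcripts, 0.0711% are shared with another gene. Without WT_PBS replicate 1, Lars2 was called lower (log2 fold change -1.77 for KO_PBS against WT_PBS, limma adjusted p = 0.00737), and so it was by DESeq2 on recovered reads (-1.48, adjusted p = 0.0412).

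Treatment with secGAA was compared with PBS in knockout muscle. No member was called by limma (0 of 36, 7 at an unadjusted p under 0.05), nor by edgeR, DESeq2 or limma voom on recovered reads (0 each, with 6 at an unadjusted p under 0.05 by each), beside 3.67% of all genes called by limma, 1.37% higher and 2.31% lower, and 19.3% at an unadjusted p under 0.05. All 7 were cytosolic. The lowest adjusted p belonged to Kars (log2 fold change -0.29, 95% interval -0.48 to -0.10, limma adjusted p = 0.103) and Iars (0.35, 0.12 to 0.58, limma adjusted p = 0.106). For Mars it was 0.29 (limma adjusted p = 0.147), for Yars 0.34 (limma adjusted p = 0.172), for Eprs -0.19 (limma adjusted p = 0.203) and for Vars -0.27 (limma adjusted p = 0.25).

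Groups did not overlap for 5 genes with higher values in KO_secGAA (Iars, Mars, Yars, Ears2 and Sars2) and for 5 with lower values (Eprs, Kars, Vars, Qars and Hars), 10 of 36 beside 24% of all genes. This comparison and that of KO_PBS with WT_PBS share the KO_PBS libraries, so opposite estimates in them are not independent of each other. The median log2 fold change was 0.01 over the cytosolic and 0.09 over the mitochondrial genes, and 27 of 36 intervals lay within 0.5 in either direction. Without the scaling factors Eprs (log2 fold change -0.34), Farsa, which codes for the alpha subunit of the phenylalanyl enzyme (-0.43), and Kars (-0.44) were called lower, on a scale where the median of all genes was -0.14; with quantile normalization Kars alone was.

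Against wild type, treated knockout muscle also gave no call among the members by limma (0 of 36, 3 at an unadjusted p under 0.05) or edgeR (0, with 4) or limma voom (0, with 3), while DESeq2 called Eprs. Of all genes 3.72% were called by limma, 1.83% higher and 1.89% lower, and 21.5% had an unadjusted p under 0.05. Eprs had a log2 fold change of 0.27 for KO_secGAA against WT_PBS (95% interval 0.11 to 0.43, limma adjusted p = 0.073), with all 3 KO_secGAA libraries above all 3 WT_PBS libraries. Aars, Rars, Aars2, Pars2 and Sars2 had KO_secGAA values wholly below WT_PBS. With Eprs these make 6 of 36 without overlap, beside 26.9% of all genes. Aars2, the mitochondrial alanyl enzyme, had 14.8, 18.5 and 19.0 normalized counts in KO_secGAA, 17.6, 15.7 and 21.5 in KO_PBS, and 23.7, 27.4 and 22.0 in WT_PBS, with both knockout groups below wild type; its log2 fold change of KO_secGAA against WT_PBS was -0.48 (limma adjusted p = 0.101).

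Among the partners of the enzymes, Aimp2 changed in all 3 comparisons. It codes for a scaffold protein of the multi-synthetase complex (chr5:143902704-143909847). Aimp2 had 61.0, 79.0 and 90.5 normalized counts in KO_secGAA, 48.6, 42.4 and 36.4 in KO_PBS, and 139, 127 and 155 in WT_PBS. The 3 groups did not overlap, with KO_PBS lowest and KO_secGAA between. The log2 fold change was -1.72 for KO_PBS against WT_PBS (SE 0.154, limma adjusted p = 9.58e-05), a call that held under all 19 alternatives. It was 0.84 for KO_secGAA against KO_PBS (limma adjusted p = 0.0199) and -0.88 for KO_secGAA against WT_PBS (limma adjusted p = 0.0168). The KO_secGAA against KO_PBS call ended without KO_PBS replicate 2 or 3 or KO_secGAA replicate 2 or 3 (adjusted p up to 0.0791), and the KO_secGAA against WT_PBS call without WT_PBS replicate 3 or KO_secGAA replicate 2 (adjusted p up to 0.0836).

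Aimp2 overlaps Eif2ak1 on the other strand, and 26% of its 61-base stretches are shared with that gene; since the strand used in counting is not given, reads there cannot be told apart. Eif2ak1, which codes for the heme-regulated eIF2 kinase, had 42.7, 47.5 and 53.8 in KO_secGAA, 42.0, 38.6 and 42.2 in KO_PBS, and 56.7, 57.4 and 57.9 in WT_PBS, with KO_PBS lowest and all WT_PBS libraries above every other; its log2 fold change of KO_PBS against WT_PBS was -0.48 (limma adjusted p = 0.00632), not called without the scaling factors (-0.17). The other scaffold genes Aimp1 (log2 fold change -0.19, limma adjusted p = 0.166) and Eef1e1 (0.00, limma adjusted p = 0.993) did not pass the test. Of the 9 scaffold and editing partners tested, 2 fell in KO_PBS against WT_PBS and 0 rose, beside 11% of all genes called lower and 10.9% higher. The 2 were Aimp2 and Pstk, the kinase that acts on seryl-tRNA on the way to selenocysteine (-0.78, limma adjusted p = 0.00224).

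Some genes of the amino acid response rose by more than any synthetase, and others did not pass the test. Of 14 genes of the integrated stress response, 4 rose in KO_PBS against WT_PBS and 0 fell, of 16 amino acid and one-carbon synthesis genes 8 rose and 3 fell, and of 18 amino acid transporters 9 rose and 2 fell, beside 10.9% of all genes called higher and 11% called lower. Trib3, a pseudokinase induced by ATF4, had 11.5, 16.4 and 5.37 normalized counts in KO_secGAA, 15.8, 7.37 and 27.1 in KO_PBS, and 0.857, 1.09 and 0.925 in WT_PBS. Both knockout groups lay above every WT_PBS library. Its log2 fold change of KO_PBS against WT_PBS was 3.39 (SE 0.457, limma adjusted p = 0.000926), that of the hormone gene Gdf15 was 2.58 (limma adjusted p = 0.00225) and that of Atf5 was 0.76 (limma adjusted p = 0.0476). Atf5 lost its call without any 1 KO_PBS library, WT_PBS replicate 1 or 3, or KO_secGAA replicate 1 (adjusted p up to 0.124). Atf4 itself was not called (log2 fold change -0.08, limma adjusted p = 0.768), nor were Ddit4 (-2.18, limma adjusted p = 0.192), Atf3 (-1.24, limma adjusted p = 0.166) and Chac1 (-0.01, limma adjusted p = 0.993). Fgf21, another hormone gene, was called higher too, with 31 to 91 reads in KO_secGAA, 26 to 72 in KO_PBS and 0 to 2 in WT_PBS.

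Among synthesis genes, Asns, asparagine synthetase, had 15.2, 38.1 and 8.25 normalized counts in KO_secGAA, 38.8, 13.7 and 32.4 in KO_PBS, and 4.22, 3.83 and 2.48 in WT_PBS. Its log2 fold change of KO_PBS against WT_PBS was 2.75 (limma adjusted p = 0.00487), set beside the -0.08 of Nars, which charges tRNA with the same amino acid. Mthfd2, a mitochondrial folate enzyme, rose by 2.63 (limma adjusted p = 0.00134) and its partner Mthfd1l by 2.08 (limma adjusted p = 0.00433), while Gpt2, a mitochondrial alanine transaminase, had a log2 fold change of -1.81 (limma adjusted p = 0.00242) and the cytosolic folate enzyme Mthfd1 one of -0.57 (limma adjusted p = 0.00225), which was not called without the scaling factors (-0.26).

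Among transporters, Slc7a1, which carries cationic amino acids, rose by 1.67 (limma adjusted p = 0.00362) and Slc7a5, the large neutral amino acid transporter, by 2.21 (limma adjusted p = 0.00894), both in KO_PBS against WT_PBS. Slc7a11, the cystine carrier, was called higher with 12 to 50 reads in KO_secGAA, 24 to 51 in KO_PBS and 1 to 3 in WT_PBS. Slc38a4, a neutral and cationic amino acid carrier, had a log2 fold change of -1.63 (limma adjusted p = 0.00736). The count of 11 transporters called in either direction was 6 without WT_PBS replicate 2, WT_PBS replicate 3 or KO_PBS replicate 3, and 7 without KO_PBS replicate 1 or 2.

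The same promoter motif was present in 6 of 14 stress response genes, 3 of 14 synthesis genes and 2 of 12 transporters with a window, and in 0 of 8 scaffold and editing partners. The holders included Trib3, Fgf21, Asns, Pycr1, Slc7a11 and Slc1a4, which were called higher in KO_PBS, and also Atf3, Chac1, Nupr1, Vldlr and Got1, which were not called. Pycr1, of proline synthesis, had a log2 fold change of 1.04 (limma adjusted p = 0.0212), a call that ended without WT_PBS replicate 2 or 3 or KO_PBS replicate 3 (adjusted p up to 0.0703). Slc1a4, a neutral amino acid carrier, had 1.17 (limma adjusted p = 0.0269), and its call ended without WT_PBS replicate 1 or 2 or KO_PBS replicate 1 or 2 (adjusted p up to 0.0828). Of the 5 synthetase genes with the motif, Iars and Yars were called lower and the other 3 were not called, at -0.39 for Aars, 0.43 for Gars and -0.12 for Tars (log2 fold changes of KO_PBS against WT_PBS). Over the tested genes matched by symbol to a promoter window, 38 of 268 holders were called higher and 31 lower, against 1050 and 1027 of 9486 genes without it.

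**Figure D5:**
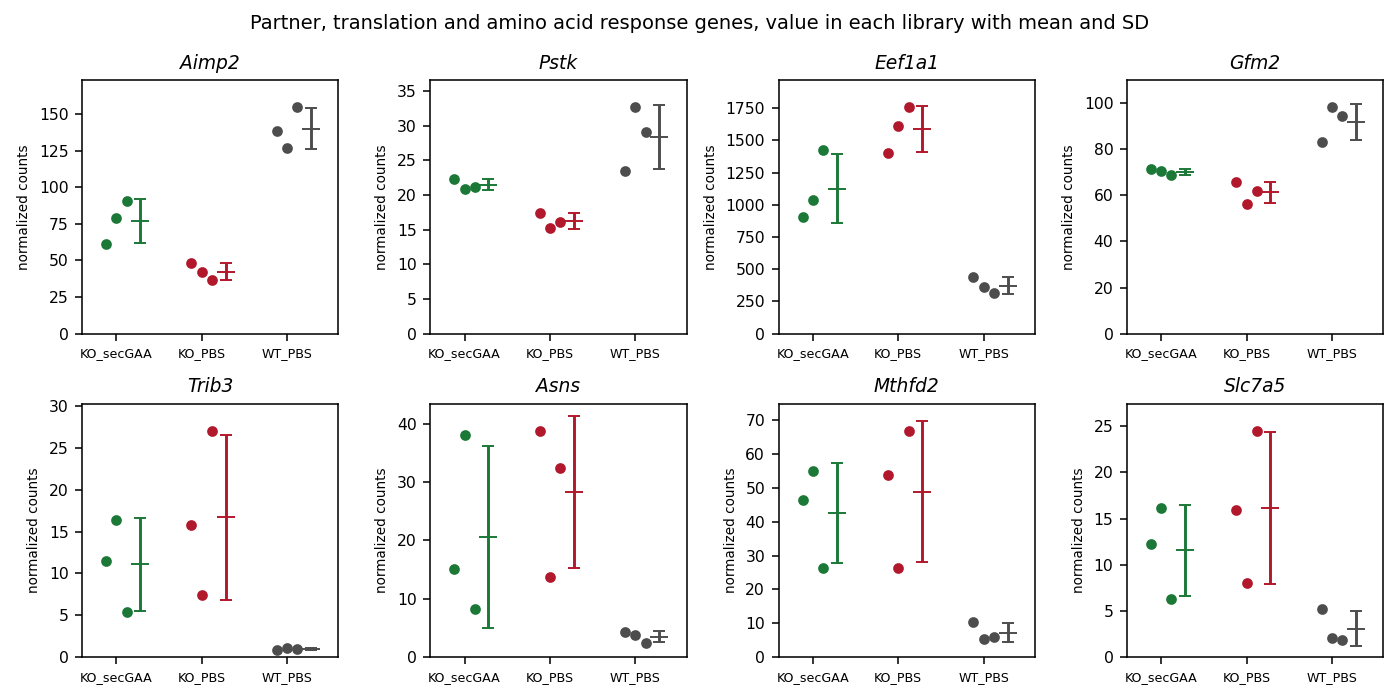
Normalized counts of 8 genes around the synthetases, with a point for each mouse and the mean and SD beside it, for KO_secGAA, KO_PBS and WT_PBS. Aimp2, Pstk and Gfm2 are lowest in KO_PBS; Eef1a1, Trib3, Asns, Mthfd2 and Slc7a5 have every KO_PBS library above every WT_PBS library, and KO_secGAA overlaps KO_PBS for each of these 5.

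Downstream of tRNA charging, 6 of 22 cytosolic translation factors rose in KO_PBS against WT_PBS and 3 fell (Eef1a2, Eif4a2 and Eif4g1), beside 10.9% of all genes called higher and 11% lower; the same shares hold for the eIF2, mitochondrial and interferon lists. Eef1a1, the elongation factor that brings charged tRNA to the ribosome, had 908, 1041 and 1425 normalized counts in KO_secGAA, 1403, 1612 and 1757 in KO_PBS, and 443, 359 and 313 in WT_PBS. Both knockout groups lay above every WT_PBS library. Its log2 fold change was 2.11 for KO_PBS against WT_PBS (limma adjusted p = 7.61e-05) and 1.59 for KO_secGAA against WT_PBS (limma adjusted p = 0.00291). Its paralogue Eef1a2, the form of adult muscle, had 1793, 1741 and 1650 in KO_secGAA, 1571, 1678 and 1325 in KO_PBS, and 2015, 1946 and 2045 in WT_PBS, with every KO_PBS library below every WT_PBS library. Eef1a2 had a log2 fold change of -0.40 for KO_PBS against WT_PBS (limma adjusted p = 0.0263), not called without KO_PBS replicate 3 or WT_PBS replicate 3 (adjusted p up to 0.0935), with only the 2 groups compared (0.0511), with quantile normalization (-0.14) or without the scaling factors (-0.08). Eif4ebp1, an inhibitor of cap-dependent initiation, rose by 1.55 (limma adjusted p = 0.00203), Eif1a by 0.64 (limma adjusted p = 0.00737) and Eif4a1 by 0.59 (limma adjusted p = 0.00942), all in KO_PBS against WT_PBS. Of 16 genes for eIF2 and its regulators 1 rose (Ppp1r15b) and 2 fell (Eif2ak1 and Eif2s2); Gcn2 itself, listed as Eif2ak4, had a log2 fold change of -0.16 (limma adjusted p = 0.55). The 9 translation factor calls became 5 without any 1 WT_PBS library or KO_PBS replicate 3, and the 3 eIF2 calls became 1 without WT_PBS replicate 3 or KO_PBS replicate 2.

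On the mitochondrial side, 0 of 21 translation factors and tRNA enzymes rose and 5 fell in KO_PBS against WT_PBS. Gfm2, a ribosome recycling factor, had a log2 fold change of -0.58 (limma adjusted p = 0.00196), the elongation factor gene Gfm1 -0.49 (limma adjusted p = 0.00986), the tRNA modification gene Mto1 -0.53 (limma adjusted p = 0.00611) and Qrsl1, part of the enzyme that makes mitochondrial glutaminyl-tRNA, -0.75 (limma adjusted p = 0.0257). Qrsl1 was not called without WT_PBS replicate 2 or 3 or KO_PBS replicate 2 or 3 (adjusted p up to 0.0938). Of 18 genes of mitochondrial genome expression and protein quality control 0 rose and 3 fell (Clpx, Polrmt and Tfb2m). The 5 translation calls became 3 without WT_PBS replicate 2 or 3 or KO_PBS replicate 2 or 3, and Tfb2m was called only with all libraries or without WT_PBS replicate 1 when libraries were left out. Without the scaling factors Gfm2 alone of these 7 named genes was still called lower. Of 19 interferon response genes 4 rose (Cxcl10, Isg15, Irgm1 and Igtp) and 0 fell.

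In the comparison of KO_secGAA with KO_PBS, Aimp2 was the 1 gene called among all of these pathway lists, beside 3.67% of all genes. For KO_secGAA against WT_PBS, 1.83% of all genes were called higher and 1.89% lower. Higher were 4 of 14 stress response genes, 2 of 16 synthesis genes (Mthfd2 and Cth) and 2 of 18 transporters (Slc7a1 and Slc7a11). Eef1a1, of 22 cytosolic translation factors, and Igtp, of 19 interferon response genes, were higher too. Aimp2, of 9 scaffold and editing partners, and Gfm2, of 21 mitochondrial translation factors and tRNA enzymes, were lower. Without WT_PBS replicate 3, Eef1a1 was the gene among these 12 that stayed called.

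Some markers of cell types were called between the same groups. Over all genes, 10.9% were called higher and 11% lower for KO_PBS against WT_PBS. These shares were 1.37% and 2.31% for KO_secGAA against KO_PBS, and 1.83% and 1.89% for KO_secGAA against WT_PBS. Of 10 skeletal muscle fibre genes 5 fell in KO_PBS against WT_PBS and 0 rose, and their summed level was 1.395e+05 to 1.531e+05 normalized counts in KO_secGAA, 1.136e+05 to 1.301e+05 in KO_PBS and 1.555e+05 to 1.841e+05 in WT_PBS. Of 12 macrophage genes 3 rose (Cd68, Lyz2 and Mpeg1) and 0 fell, with sums of 150 to 311 in KO_secGAA, 258 to 377 in KO_PBS and 107 to 178 in WT_PBS. Of 8 endothelial genes 3 fell and 0 rose, with sums of 167 to 194 in KO_secGAA, 120 to 151 in KO_PBS and 163 to 202 in WT_PBS. Of the fibroblast list 1 of 6 rose, of the satellite cell list 1 of 5, of the smooth muscle and pericyte list 1 of 6 rose and 1 fell, and of the adipocyte and Schwann cell lists 0 of 6 each were called. In the table stood 1 of 8 T and NK cell genes, which fell, and 2 of 6 B and plasma cell genes, neither called. Of 9 immediate early genes, which respond to tissue handling, 4 rose and 1 fell. Between KO_secGAA and KO_PBS, Cd68, Col1a2, Lum and Cdh15 fell and Lep rose, and between KO_secGAA and WT_PBS, Cd68 and Mpeg1 rose. No marker gene in the table was at 0 reads in a library. The part of these cell types and of handling in the synthetase values was not tested.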

How the data were processed

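RNA from quadriceps muscle of 9 mice, 3 per group, was sequenced as single reads, and 1 table of genes by libraries was used. Per the file headers the deposited values are normalized counts, a signal scaled between libraries by the authors; GRCm38 and the tools cutadapt, CASAVA, edgeR, RSEM and limma are listed in the submitters' processing notes, with versions and counting strand not given in the sources used here. Adding 0.5 to whole reads, dividing by library totals with TMM factors and multiplying by 1e6 rebuilt the deposited values to a relative difference of 9.2e-08, and 100% of 118044 values gave whole reads within a relative tolerance of 1e-06.

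From these values, log2(value + 0.5) was fitted with limma 3.58.1 (R 4.3.3; empirical Bayes with a trend) as group means over all 9 libraries, with 6 residual degrees of freedom, for genes reaching 1 in at least 3 libraries; 27 genes were removed and 13089 tested. P-values were adjusted by the Benjamini-Hochberg method, called under 0.05, and are two-sided. They set the difference of group means against the spread between mice within groups, pooled over the groups and moderated over all genes. On recovered reads, edgeR 4.0.16 called 2841 genes for KO_PBS against WT_PBS, 445 for KO_secGAA against KO_PBS and 503 for KO_secGAA against WT_PBS; DESeq2 1.42.0 and limma voom were run too. The code of the fit was also run on simulated data in which the changed genes were all raised, so that run does not cover changes in both directions. Other settings were pseudocounts, filters, scaling, the 2 compared groups alone and leaving out each library. Intervals are 95% limits of the fit, and floors of 3 reads cover counting error only.

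The members and all gene lists were chosen with earlier results of these data known. Named genes were the called members with their partners, and up to 4 called genes of each list per comparison by smallest p; Asns, Pycr1, Slc1a4 and the other motif holders, and any further gene given with a value, were chosen after their values were seen. Replicate numbers only name the mice. Shared sequence was counted as 61-base stretches, the read length, of annotated transcripts. Promoters came from RefSeq on GRCm38.p6 and gene positions from GENCODE M21. Figures were drawn with matplotlib 3.10.9 in Python 3.11.15.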

Additional observations from a re-analysis of the deposited data

How the results depend on the processing

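Each result was recomputed under 19 alternatives, of which 1 removed the authors' scaling factors. For KO_PBS against WT_PBS it gave 4984 genes changed (4466 higher, 518 lower) against 2867 (1430 and 1437), 11 cytosolic synthetases, all higher, against 6, and Farsb called higher (log2 fold change 0.264) where the estimate had been below 0. For KO_secGAA against KO_PBS it gave 959 genes (102 higher, 857 lower) against 481 (179 and 302) and 3 cytosolic synthetases against 0; for KO_secGAA against WT_PBS, 1007 genes (868 higher, 139 lower) against 487 (239 and 248) and 1 cytosolic synthetase against 0. Mitochondrial synthetases changed between KO_PBS and WT_PBS numbered 2 (Pars2 and Sars2). The count was 1 with the filter at 5 and with edgeR (Sars2), 1 with DESeq2 (Lars2), and 0 with only the 2 groups compared. Quantile normalization called 1 cytosolic synthetase for KO_secGAA against KO_PBS. DESeq2 called 798 genes for KO_secGAA against KO_PBS, and 1022 genes and 1 cytosolic synthetase for KO_secGAA against WT_PBS; with only the 2 groups compared, KO_secGAA against KO_PBS gave 316 genes. The cause was not tested.

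Leaving out 1 library gave 1744 (without WT_PBS replicate 3; 1844 without KO_PBS replicate 2) to 2847 genes for KO_PBS against WT_PBS, with 1 (without WT_PBS replicate 3; 2 without WT_PBS replicate 1) to 5 cytosolic and 0 to 1 mitochondrial synthetases. The last count was 0 without WT_PBS replicate 2 or 3, KO_PBS replicate 1 or 2, or KO_secGAA replicate 2, and 1 without each of the other 4. The 1 was Lars2 without WT_PBS replicate 1, Aars2 without KO_PBS replicate 3, and Pars2 without KO_secGAA replicate 1 or 3. For KO_secGAA against KO_PBS it gave 159 (without KO_secGAA replicate 2) to 568 genes and 0 cytosolic and 0 mitochondrial synthetases; 183, 220 and 262 genes were left without KO_PBS replicates 2, 3 and 1, 223 and 302 without KO_secGAA replicates 3 and 1, and 260 without WT_PBS replicate 3. For KO_secGAA against WT_PBS it gave 94 (without WT_PBS replicate 3) to 503 genes, with 143, 181 and 209 without KO_secGAA replicate 2, KO_secGAA replicate 1 and WT_PBS replicate 2, 0 cytosolic synthetases, and 0 to 1 mitochondrial, the 1 being Lars2 without WT_PBS replicate 1. The cytosolic minus mitochondrial difference in median ranged over 0.052 to 0.214 for KO_PBS against WT_PBS, -0.137 to 0.034 for KO_secGAA against KO_PBS and 0.009 to 0.128 for KO_secGAA against WT_PBS. No paired analysis was possible because the replicate numbers come from accession order only. Standard errors did not follow depth alone: for KO_PBS against WT_PBS that of Lars2, with at least 1331 reads in every library, was 0.481, and that of Pars2, with at least 29, was 0.174.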

Other observations

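Synthetase genes also shared an order among the mice of 1 group, a pattern noticed after the values were seen and given without a test. KO_secGAA replicate 2 held the highest value of its group in 11 of the 20 cytosolic genes (55%), beside 32.6% of all genes tested. KO_PBS replicate 2 held the lowest value of its group in 16 of 20 (80%), beside 31.2% of all genes, and WT_PBS replicate 2 in 16 of 20, beside 32.4%. Of the 16 mitochondrial genes, 9 (56.2%) were highest in KO_secGAA replicate 2 and 8 (50%) lowest in KO_PBS replicate 2. In WT_PBS, by contrast, 10 of these 16 (62.5%) were highest in replicate 2, beside 34.2% of all genes. Of the 16 amino acid and one-carbon synthesis genes, 11 were highest in KO_secGAA replicate 2 within KO_secGAA and 11 lowest in KO_PBS replicate 2 within KO_PBS. Genes of 1 library share its depth and scaling, whose part in this order was not tested.

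Tarsl2, which codes for a cytosolic threonyl enzyme and is not among the 36, was singled out after its values were seen. Tarsl2 had 64.3, 58.6 and 60.8 normalized counts in KO_secGAA, 51.4, 50.3 and 52.8 in KO_PBS, and 76.7, 70.8 and 79.5 in WT_PBS, and the 3 groups did not overlap. Its log2 fold change of KO_PBS against WT_PBS was -0.55 (SE 0.078, limma adjusted p = 0.00122), while that of Tars was -0.12 and was not called.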
